A study of Mus musculus with 4 samples.

Results

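The matrix-degrading and shedding metalloproteinases and their tissue inhibitors were described across 4 microarrays of mouse parietal peritoneum. Genes were taken by symbol: the matrix metalloproteinases (Mmp), the tissue inhibitors of metalloproteinases (Timp), the membrane-anchored disintegrin metalloproteinases (Adam) and the secreted ADAMs with thrombospondin repeats (Adamts). Of 18193 genes with a probe set of 1 symbol, 65 qualified, namely 18 Mmp, 4 Timp, 28 Adam and 15 Adamts genes. Of several probe sets for a gene, the one brightest on average (log2 signal) was read. At least 1 array called 40 of the 65 Present, that is, detected, 29 were Present on all 4 arrays, and 25 on none. The 40 were 61.5% of the 65. Of all 18193 genes, 12754 (70.1%) were Present on at least 1 array and 10406 on all 4.

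All mice were C57BL/6J and each of the 4 groups was 1 array. Wild-type mice and SAP-BNP-Tg mice, which carry a brain natriuretic peptide transgene under the serum amyloid P promoter, received either chlorhexidine gluconate or an ethanol/PBS vehicle into the peritoneal cavity. Chlorhexidine, an irritant used to model peritoneal fibrosis, was given at 0.1% in 15% ethanol and 85% PBS, at 0.01 mL per g of body weight, 3 times per week for 21 days. The labels give no proportions, volume or schedule for the vehicle of the controls, so a difference in ethanol between the groups and the effect of chlorhexidine cannot be told apart. How many mice were pooled on an array, if any, is not in the labels. No group had a replicate, so no difference below has a replicate check, and no difference was set against the spread between animals.

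Matrix metalloproteinases are zinc enzymes made as inactive proenzymes, and between them they cut collagens, gelatin, elastin and other matrix and cell-surface proteins. TIMP proteins bind the active site of these enzymes and block it, and TIMP3 also inhibits several ADAM and ADAMTS enzymes. ADAM enzymes sit in the cell membrane and release growth factors, cytokines and receptors from the surface, while ADAMTS enzymes trim procollagen and cut the proteoglycans aggrecan and versican. In the peritoneum, fibroblasts, mesothelial cells and macrophages are known sources of these enzymes, and injury of the mesothelium is followed by thickening of the matrix beneath it.

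Several of the Mmp genes described below are neighbours in one cluster on chromosome 9, where the gene order in RefSeq is Mmp13, Mmp12, Mmp1b, Mmp3, Mmp1a, Mmp10, Mmp8, Mmp27, Mmp20 and Mmp7. The AP-1 motif, TGAGTCA or its reverse complement TGACTCA and so read on both strands, is a known binding sequence of Fos and Jun proteins. It lay within the window from 250 bases before to 50 bases after the start in 5.20% of 32851 promoters, in 7 of these 10 cluster genes, and in 2 of the 28 other metalloproteinase genes with a promoter in the RefSeq table. The 100 bases before the start of the 7 cluster genes are shown because Mmp3, which was higher with chlorhexidine, and Mmp12, which was lower, both carry the motif. They are written in the sense direction of each gene, from RefSeq on GRCm38.p6, with the motif in capitals.
Mmp13 (chr9:7272414-7272513, plus strand): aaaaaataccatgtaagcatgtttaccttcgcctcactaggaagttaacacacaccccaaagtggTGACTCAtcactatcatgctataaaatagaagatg
Mmp12 (chr9:7347274-7347373, plus strand): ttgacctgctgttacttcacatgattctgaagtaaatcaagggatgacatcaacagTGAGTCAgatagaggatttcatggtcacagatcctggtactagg
Mmp1b (chr9:7388027-7388126, minus strand): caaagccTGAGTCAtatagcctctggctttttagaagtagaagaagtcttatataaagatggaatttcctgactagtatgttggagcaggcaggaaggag
Mmp3 (chr9:7445722-7445821, plus strand): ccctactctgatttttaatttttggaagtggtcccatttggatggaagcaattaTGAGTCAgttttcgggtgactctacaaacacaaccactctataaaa
Mmp1a (chr9:7464041-7464140, plus strand): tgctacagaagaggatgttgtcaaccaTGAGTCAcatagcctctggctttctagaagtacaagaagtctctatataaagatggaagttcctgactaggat
Mmp10 (chr9:7502242-7502341, plus strand): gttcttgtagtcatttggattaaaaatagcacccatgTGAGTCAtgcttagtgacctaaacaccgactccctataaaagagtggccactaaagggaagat
Mmp7 (chr9:7691990-7692089, plus strand): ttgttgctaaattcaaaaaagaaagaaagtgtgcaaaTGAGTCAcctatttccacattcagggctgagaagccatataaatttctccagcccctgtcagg
Counted from the start, the first base of the motif lay at positions from -93 in Mmp1b to -35 in Mmp13. For Mmp12 and Mmp7 the table holds 2 starts each, and the motif stood at 1 of them. A match of letters is not a measured binding site, and no binding was measured in these samples.

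The deposited signals were put on one scale by equal trimmed means, with factors of 0.877 to 1.17, and 50.5% to 55.1% of probe sets were called Present. The wild-type vehicle array stood apart from the others in its control probe sets: its 18S ribosomal RNA signal was 1052 against 81.5 to 108 elsewhere, and its ratio of actin 3′ to middle signal was 5.81 against 2.23 to 2.84. For the 65 genes, results that use it are therefore also given against the other vehicle array where that ends a call or moves a called value by over 1.5 times. For markers and other listed genes this was done for some only. Mesothelial markers were detected on every array, with 6 of 6 Present, and so were 6 of 6 skeletal muscle markers, with 47605 to 57880. Nppb, the gene of brain natriuretic peptide, had no Present call, reading 6.91 with vehicle and 20.1 with chlorhexidine in the wild type and 9.04 and 4.04 in the transgenic mice. The labels do not tie the transgene to the peritoneum, so this reading does not check the genotype. In such tissue, more cells of a type and more RNA per cell cannot be told apart.

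More of these genes were higher than lower with chlorhexidine, in both genotypes. To be called, a gene needed scaled signals at least 2-fold apart, with the brighter array Present and outside the dimmest 25% of its detected probe sets. In the wild type, 16 of the 65 genes were called higher and 2 lower, against 5.77% and 3.46% of all genes. In the transgenic mice, 7 were called higher and 1 lower, against 2.67% and 0.978% of all genes. Median centring of the arrays turned the split of all genes in the wild type from 1049 higher and 629 lower to 723 higher and 1225 lower. It left 15 of the 65 genes higher and 2 lower. With the transgenic vehicle array as the reference for the wild-type chlorhexidine array, 13 genes were higher and 2 lower, beside 922 and 455 of all genes. The genes that lost their call were Adamts5, Mmp11 and Mmp19. Of the genes that kept their call there, 5 had a fold over 1.5 times smaller: Adam12 went from 13.8 to 7.46, Mmp14 from 8.95 to 5.76, Adamts12 from 4.25 to 2.61, Adam8 from 3.71 to 2.03, and Adamts6 from at least 21.1 to at least 6.00. Set against the wild-type vehicle array, 11 genes were higher on the transgenic chlorhexidine array, beside 659 of all genes. Among them were Adam8, Adam19, Adamts5, Adamts12 and Mmp19, none of which was called against the transgenic vehicle array. The log2 differences were 3.02 in place of 2.13 for Adam12 and 2.31 in place of 1.68 for Mmp14.

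By family, 6 of 18 Mmp, 1 of 4 Timp, 3 of 28 Adam and 6 of 15 Adamts genes were higher in the wild type. In the transgenic mice, against their own vehicle array, these counts were 5 Mmp, 1 Timp, 1 Adam and no Adamts gene. The genes higher in both genotypes were Timp1, Mmp14, Mmp2, Mmp3, Mmp23 and Adam12, 6 in all against 2.13% of all genes, and Mmp12 was the 1 gene lower in both, against 0.577%. The median log2 difference over all 18 Mmp genes, detected or not, was 1.82 in the wild type and 0.52 in the transgenic mice. Over the Adamts genes it was 1.16 and -0.02, over the Adam genes -0.08 and 0.44, and over the Timp genes 0.30 and -0.05, beside -0.03 and -0.00 over all genes. Adding 32 to each signal, which damps the undetected genes, lowered the wild-type medians of the Mmp and Adamts genes to 0.23 and 0.63, so these medians lean on dim probe sets. The transgenic Timp median turned positive, 0.26, when the probe sets of a gene were averaged.

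**Figure D1:**
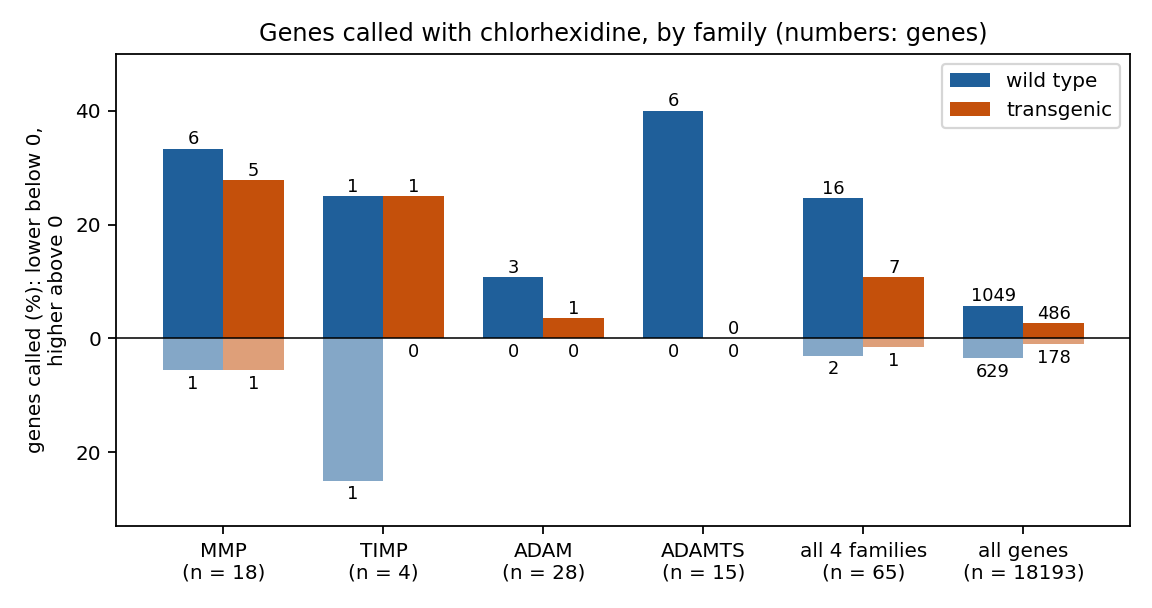
The bars give the percentage of genes called higher (above 0) or lower (below 0, paler) with chlorhexidine on the vertical axis, for each family, the 4 families together and all genes, in the wild type (blue) and the transgenic mice (orange), with the number of genes at each bar. The Adamts bar stands at 6 of 15 genes in the wild type and at none in the transgenic mice.

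**Figure D2:**
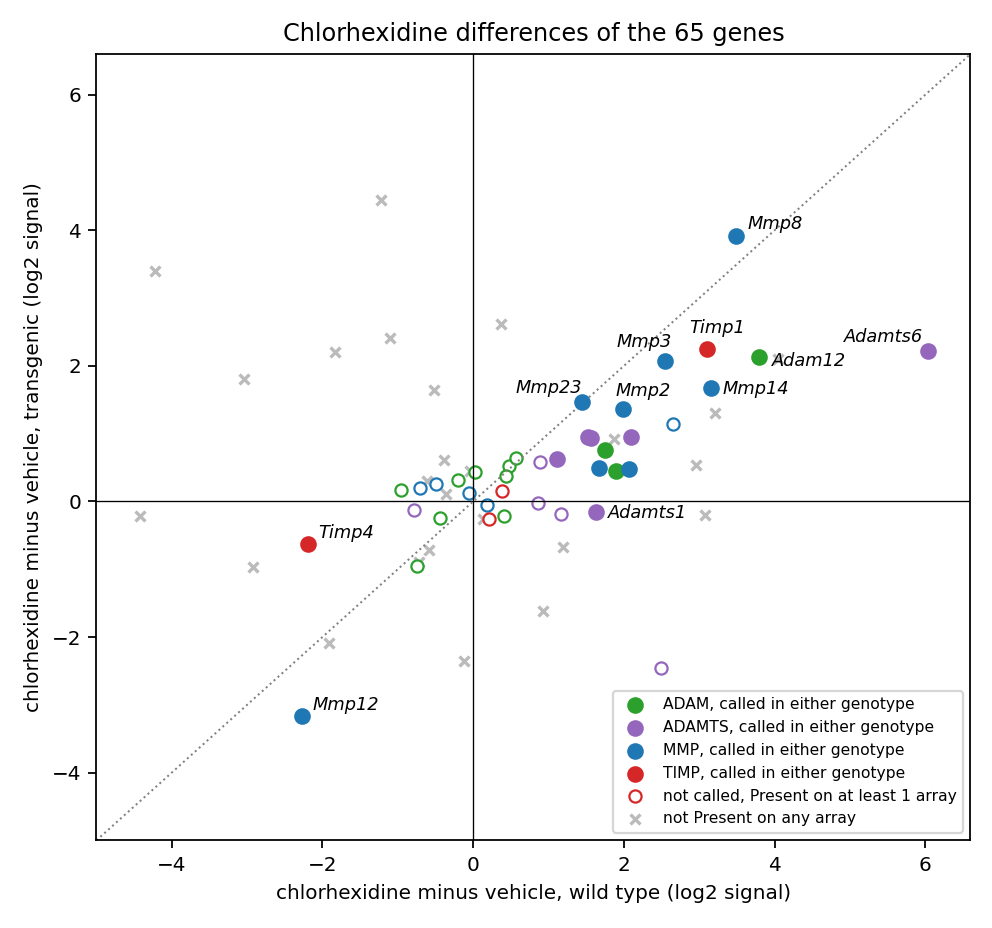
Each point is 1 of the 65 genes, with its log2 difference between chlorhexidine and vehicle in the wild type on the horizontal axis and in the transgenic mice on the vertical axis, filled where called in either genotype, open where detected but not called and a grey cross where never Present; the dotted line marks equal values. Timp1, Mmp14, Mmp3 and Adam12 lie at the upper right below the line and Mmp12 at the lower left, and each genotype rests on 1 vehicle array.

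Among the inhibitors, Timp1 was higher with chlorhexidine in both genotypes, Timp4 was lower in the wild type, and Timp2 and Timp3 stayed within 2-fold in both. Timp1, the inducible member of the family, had signals of 75.5 and 648 in the wild type under vehicle and chlorhexidine, and 110.1 and 524 in the transgenic mice. Both chlorhexidine arrays lay above both vehicle arrays, 8.58-fold in the wild type and 4.76-fold in the transgenic mice. Timp4, known in muscle, heart and fat, read 376 and 81.9 in the wild type and 379 and 245 in the transgenic mice. It was 4.59-fold lower with chlorhexidine in the wild type and 1.55-fold lower, short of the threshold, in the transgenic mice. Under chlorhexidine the transgenic array was 2.99-fold above the wild-type array, and a second Timp4 probe set gave log2 differences of -1.59 and -0.63 with chlorhexidine.

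Timp2, a broadly expressed inhibitor that also takes part in the activation of pro-MMP2, read 1684 and 2198 in the wild type and 1885 and 2093 in the transgenic mice. Its fold was 1.31 and 1.11, the smallest range over the 4 arrays of any metalloproteinase or inhibitor gene Present on all of them. That flatness belonged to the probe set used: the 5 Timp2 probe sets Present on all arrays gave log2 differences of 0.38 to 2.17 in the wild type and 0.14 to 0.62 in the transgenic mice. Timp3, which is held in the matrix, read 709.9 and 822 in the wild type and 1004 and 840.3 in the transgenic mice. Its 4 probe sets gave log2 differences from 0.21 to 1.30 in the wild type and from -0.26 to 0.06 in the transgenic mice.

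**Figure D3:**
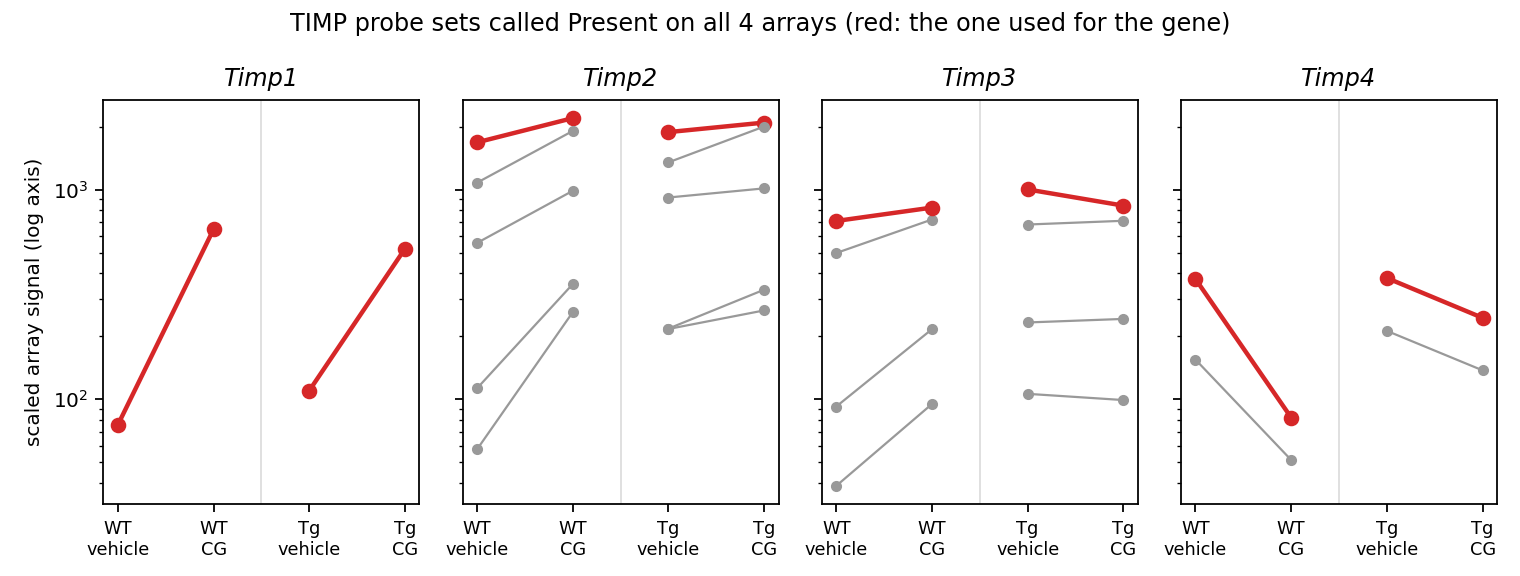
Each line joins the scaled signal (log axis) of 1 probe set on the vehicle and chlorhexidine (CG) arrays of the wild-type (WT) and transgenic (Tg) mice, for the Timp probe sets Present on all 4 arrays, with the one used for the gene in red. Timp1 climbs from 75.5 to 648 in the wild type, Timp4 drops from 376 to 81.9, and the Timp2 and Timp3 probe sets differ among themselves in slope.

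Adipocyte markers were lower beside Timp4: of 4 measured, 3 were lower in the wild type and 2 in the transgenic mice, with a summed signal of 11293 and 5264 in the wild type and 10858 and 6888 in the transgenic mice. All 4 were detected. Fibroblast markers were higher beside Timp1: 3 of 6 were higher in the wild type and 2 of 6 in the transgenic mice, and their sum was 9634 and 18914, then 10390 and 16053. Against the transgenic vehicle array, wild-type Pdgfra and Pi16, 2 of these markers, came to 1.80-fold and 1.84-fold, short of the threshold. Mesothelial markers were lower beside Timp4 in the wild type, with 2 of 6 called lower there and 1 of 6 higher in the transgenic mice, and sums of 582 and 293, then 447 and 493. Upk3b, one of them, gave log2 differences of -1.75 and -0.25 and was 1.45 higher on the transgenic than on the wild-type chlorhexidine array. Wt1, the 1 called higher, went the other way, at 0.95 and 1.26, and stood at -0.21 between the chlorhexidine arrays. Krt19, the other marker called lower in the wild type, was 1.81-fold lower against the transgenic vehicle array, short of the threshold. The part of these cell types in the Timp differences was not tested.

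Of the membrane-type enzymes, Mmp14, which activates pro-MMP2 at the cell surface and itself cuts fibrillar collagen, had the largest measured fold among the called Mmp genes in the wild type. Its signals were 202 and 1808 in the wild type and 314 and 1005 in the transgenic mice, 8.95-fold and 3.20-fold higher. Its 3 probe sets gave log2 differences of 3.16 to 4.48 in the wild type and from 1.68 to 2.07 in the transgenic mice. Mmp2, the gelatinase that MMP14 activates, read 516 and 2042 in the wild type and 689.5 and 1772 in the transgenic mice. Both chlorhexidine arrays again lay above both vehicle arrays, 3.96-fold and 2.57-fold. Mmp9, the other gelatinase and mainly a product of leukocytes, read 35.4 and 25.1 in the wild type and 40.6 and 48.4 in the transgenic mice, and passed the threshold in neither.

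Mmp3, stromelysin 1, which cuts proteoglycans and activates other pro-MMPs, read 106 and 622 in the wild type and 138 and 583 in the transgenic mice. It was 5.85-fold and 4.22-fold higher with chlorhexidine. Mmp23, a type II membrane enzyme, read 103 and 279 in the wild type and 72.7 and 201 in the transgenic mice. Its folds of 2.72 and 2.76 were close to each other, whereas Timp1, Mmp14, Mmp2, Mmp3 and Adam12 each had a smaller fold in the transgenic mice, a difference that was not tested. Against the wild-type vehicle array the Mmp23 difference of the transgenic chlorhexidine array was 0.97 on the log2 scale, just under the threshold.

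Mmp11 and Mmp19 were called higher in the wild type alone. Mmp11, stromelysin 3, a stromal enzyme, read 10.2 and 42.9 in the wild type and 23.2 and 32.4 in the transgenic mice. Because the wild-type vehicle array was Absent, its fold there was at least 4.21, taken against the higher of its own signal and the lowest Present signal of that array, and it was 1.40 in the transgenic mice. Mmp19, an enzyme with basement membrane substrates, read 34.1 and 108 in the wild type and 69.2 and 97.6 in the transgenic mice, 3.17-fold and 1.41-fold higher. For both genes the 2 chlorhexidine arrays were near each other and the vehicle arrays differed more. Set against the vehicle array of the transgenic mice, wild-type chlorhexidine came to less than 2-fold for both. Set against the wild-type vehicle array, transgenic chlorhexidine was 1.52 higher on the log2 scale for Mmp19, which was then called. Mmp11 stood at 1.67 there and was too dim to be called.

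Mmp12, the macrophage elastase, was the 1 Mmp gene called lower. Its signals were 162 and 33.6 in the wild type and 199 and 22.1 in the transgenic mice, 4.84-fold and 9.01-fold lower with chlorhexidine. Both vehicle arrays lay far above both chlorhexidine arrays. Macrophage markers were not lower beside it: 2 of 6 were higher in the wild type and 1 in the transgenic mice, and their summed signal was 5398 and 8285, then 5738 and 8243, with all 6 detected. Against the transgenic vehicle array, wild-type Mrc1, one of the 2, came to 1.67-fold, short of the threshold. The B and plasma cell markers were lower, all 4 measured in both genotypes, with sums of 3484 and 99.0 in the wild type and 1555 and 177 in the transgenic mice. All 4 were also called lower on the transgenic than on the wild-type vehicle array, at -1.24 to -1.05 on the log2 scale. Jchain, one of them, was 41.9-fold lower in the wild type and 18.7-fold lower against the transgenic vehicle array. The part of these cell types in the Mmp12 difference was not tested.

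The collagenases were dim. Mmp8, the neutrophil collagenase, read 0.585, 6.59 and 3.95 on the wild-type vehicle, wild-type chlorhexidine and transgenic vehicle arrays, all Absent, and 59.9 on the transgenic chlorhexidine array, which was Present. It was at least 15.2-fold higher with chlorhexidine in the transgenic mice and at least 9.09-fold above the wild-type chlorhexidine array. Neutrophil markers were also highest on that array, with summed signals of 116 and 472 in the wild type and 252 and 2217 in the transgenic mice. S100a8, S100a9 and Csf3r were higher with chlorhexidine in both genotypes, while Cxcr2, Camp, Ltf, Elane and Mpo, 5 of the 9 markers measured, were Present on no array. Ngp, Present on all arrays, was called with chlorhexidine in neither genotype, at -0.87 and 0.97 on the log2 scale. It was 1.78 higher on the transgenic than on the wild-type chlorhexidine array. Most of the sum of 2217 was S100a8, at 1066, and S100a9, at 930. Csf3r read 113 on that array and 93.8 on the wild-type chlorhexidine array. In the wild type the folds were 9.12 for S100a8, at least 5.73 for S100a9 and 5.27 for Csf3r. Against the transgenic vehicle array these came to 2.39, 1.30 and 2.96, and S100a9 fell short of the threshold. S100a8 and S100a9 were also called higher on the transgenic than on the wild-type vehicle array, 3.82-fold and at least 4.40-fold. Alas2, an erythroid gene, was also highest on the transgenic chlorhexidine array, at 1178 against 150.0 to 212 elsewhere. The part of neutrophils or blood in the Mmp8 signal was not tested. Mmp13, collagenase 3, read 2.46 and 15.5 in the wild type and 3.07 and 6.77 in the transgenic mice. It was Present with chlorhexidine and Absent with vehicle in both genotypes, by at least 5.28-fold in the wild type and 2.09-fold in the transgenic mice, and was not called because it lay among the dimmest detected probe sets.

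**Figure D4:**
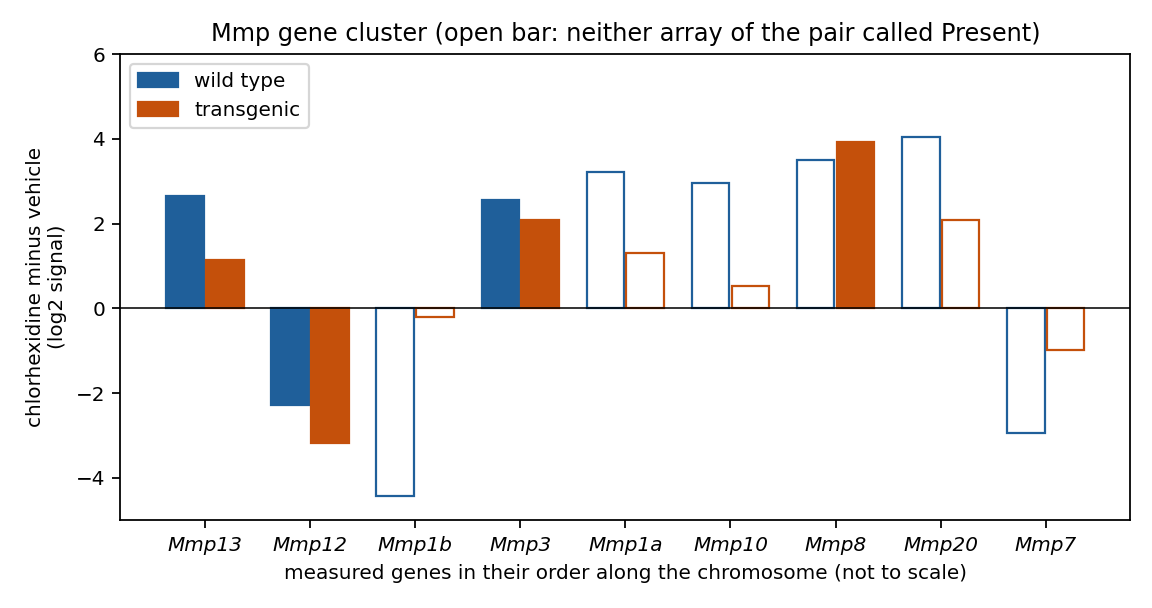
Bars give the log2 difference between chlorhexidine and vehicle for the 9 measured genes of the chromosome 9 cluster, in their order along the chromosome, in the wild type (blue) and the transgenic mice (orange), open where neither array of the pair was Present. Mmp12 points down and Mmp3 up in both genotypes, and the open bars carry no detected signal.

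Within the chromosome 9 cluster, 9 of the 10 genes were measured and 4 were detected on any array, namely Mmp13, Mmp12, Mmp3 and Mmp8. Neighbours thus differed: Mmp12 was lower with chlorhexidine in both genotypes, and Mmp3, 2 genes along, was higher in both. Mmp8, detected on 1 array, is among the 3 cluster genes whose window did not hold the letters of the motif, while Mmp13, Mmp12 and Mmp3 did hold them. Of the 16 genes higher in the wild type, 10 had a promoter in the table and 2 of these held the motif. Of all 37 genes of the 4 families with a promoter, 9 (24.3%) held it, beside 5.95% of all 27025 genes with a promoter. The 2 genes were Mmp3 and Adam19, and Adam19 held the motif at only 1 of several starts.

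Among the membrane-anchored ADAM genes, Adam12, a protease and cell adhesion protein of mesenchymal cells, was higher in both genotypes. It read 37.2 and 515 in the wild type and 69.0 and 302 in the transgenic mice, 13.8-fold and 4.37-fold higher. Adam19, a related sheddase of neuregulin, read 58.5 and 196 in the wild type and 70.4 and 119 in the transgenic mice, 3.35-fold and 1.69-fold higher. Adam8, a leukocyte sheddase, read 46.9 and 174 in the wild type and 85.8 and 118 in the transgenic mice, 3.71-fold and 1.37-fold higher. All 3 had both chlorhexidine arrays above both vehicle arrays, and Adam19 and Adam8 passed the threshold in the wild type alone. Against the wild-type vehicle array, these 2 passed it on the transgenic chlorhexidine array too, at 1.03 and 1.32 on the log2 scale.

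On the probe sets used, the main constitutive sheddases stayed under 2-fold. Adam17, which releases tumour necrosis factor and ligands of the EGF receptor, read 196 and 290.2 in the wild type and 177 and 276 in the transgenic mice, 1.48-fold and 1.56-fold. Its 3 probe sets Present on all arrays gave log2 differences of 0.56 to 1.45 in the wild type, past 2-fold at the upper end, and 0.48 to 0.65 in the transgenic mice. Adam10, which cuts Notch and cadherins, read 418 and 583 in the wild type and 341 and 489 in the transgenic mice, 1.40-fold and 1.44-fold. Its other probe set Present on all arrays gave log2 differences of 2.26 and 0.19, so the probe sets did not give one size. Adam9 was 1.35-fold and 1.29-fold higher, and Adam15 and Adam33 had the smallest ranges over the 4 arrays after Timp2. Adam15 read 186 and 190.2 in the wild type and 157 and 213 in the transgenic mice. As with Timp2, this belonged to the probe set used, since the 3 Adam15 probe sets Present on all arrays gave wild-type log2 differences of 0.03 to 1.55. Of 16 measured ADAM genes known mainly from testis, 2 were Present on any array, beside 70.1% of all genes.

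Against their own vehicle arrays, the secreted ADAMTS genes were called in the wild type alone. Against the wild-type vehicle array, Adamts12 and Adamts5 were also called higher on the transgenic chlorhexidine array, at 1.65 and 1.51 on the log2 scale. Adamts1, which cuts versican and aggrecan and binds VEGF, read 198 and 614 in the wild type and 277 and 249 in the transgenic mice. It was 3.11-fold higher with chlorhexidine in the wild type, differed by -0.15 on the log2 scale in the transgenic mice, and was 2.46-fold lower on the transgenic than on the wild-type chlorhexidine array. The 3 other arrays lay together and the wild-type chlorhexidine array stood above them. Endothelial markers, all 4 detected, were also highest in sum on that array, at 469 and 753 in the wild type and 558 and 554 in the transgenic mice. Of these markers, 2 were called higher in the wild type, Kdr by 1.42 and Emcn by 1.01 on the log2 scale. None was called in the transgenic mice, where these 2 stood at -0.32 and 0.07. Against the transgenic vehicle array, wild-type Emcn came to 1.42-fold, short of the threshold. Pecam1, at 0.64 and -0.02, and Cdh5, at -0.07 and 0.09, were called in neither genotype. Kdr was also called lower on the transgenic than on the wild-type chlorhexidine array, at -1.40. The part of endothelial cells in the Adamts1 difference was not tested.

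Adamts12 read 35.4 and 150.4 in the wild type and 57.6 and 111 in the transgenic mice, 4.25-fold and 1.93-fold higher. Adamts15, a versicanase, read 58.9 and 174 in the wild type and 50.5 and 96.8 in the transgenic mice, 2.96-fold and 1.92-fold higher. Adamts3, a procollagen N-proteinase, read 31.5 and 90.4 in the wild type and 31.9 and 62.0 in the transgenic mice, 2.87-fold and 1.94-fold higher. In the transgenic mice these 3 genes lay just under the threshold, at 0.95, 0.94 and 0.96 on the log2 scale, so their calls in one genotype alone do not separate the genotypes.

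Adamts5, a major aggrecanase, read 169.9 and 366 in the wild type and 313 and 483 in the transgenic mice, 2.15-fold and 1.54-fold higher. Its wild-type log2 difference of 1.11 was just past the threshold and was 0.22 against the transgenic vehicle array. Adamts6 was Present on the wild-type chlorhexidine array alone, at 61.6 against 0.937 with vehicle, at least 21.1-fold. In the transgenic mice it read 10.3 and 48.0, both Absent, and a second probe set gave log2 differences of -0.82 and 2.38, opposite in sign in the wild type. Adamts4, the other major aggrecanase, was at least 2.24-fold higher in the wild type, at 34.3 against 15.3, and was too dim to be called. Adamts9 stayed under the threshold, with a wild-type log2 difference of 0.89.

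**Figure D5:**
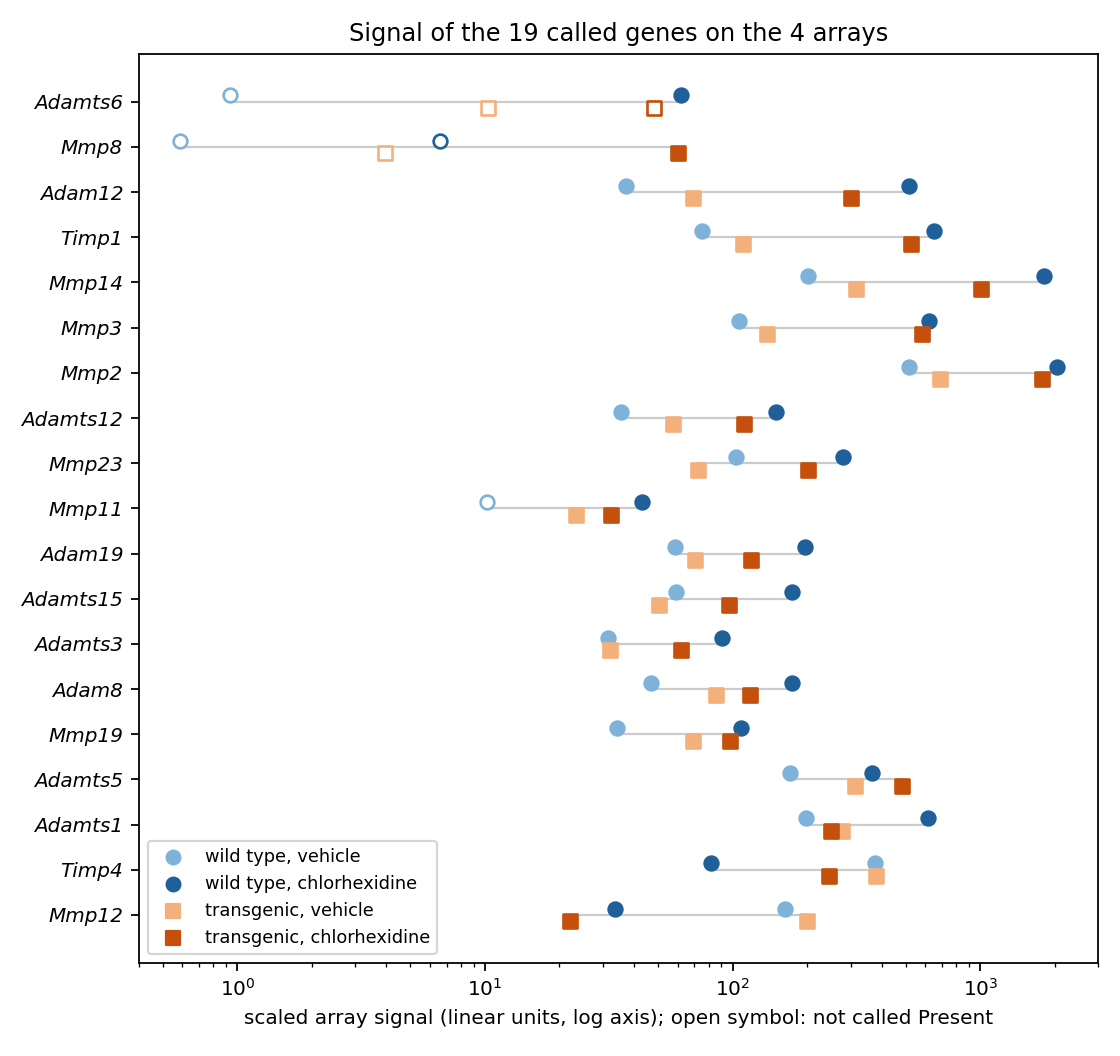
Points give the scaled signal (horizontal log axis) of the 19 genes called in any comparison on each of the 4 arrays, circles for the wild type and squares for the transgenic mice, dark for chlorhexidine and pale for vehicle, open where the array was not Present; genes are ordered by their mean difference with chlorhexidine. Mmp12 and Timp4 lie at the bottom with their pale symbols to the right of the dark ones.

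Between genotypes, few of these genes passed the threshold. Under vehicle, Mmp19 was 2.03-fold higher in the transgenic mice, 1 of 65 genes against 0.671% of all genes, and none was lower, against 0.352%. Under chlorhexidine, Mmp8 and Timp4 were higher and Adamts1 was lower in the transgenic mice, against 0.550% and 0.676% of all genes. Quantile normalization, cyclic loess or median centring left no gene called under vehicle. The 46 genes called in no comparison included 13 that were Present on all 4 arrays, whose differences with chlorhexidine ran from -0.79 for Adamts20 to 0.89 for Adamts9 in the wild type and from -0.96 for Adam22 to 0.65 for Adam17 in the transgenic mice.

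The change with chlorhexidine was smaller in the transgenic than in the wild-type mice for 15 of the 16 genes called higher in the wild type. That count uses the contrast that picked the genes, so it tells nothing of the genotypes. Over all 65 genes, 39 (60.0%) had the lower value in the transgenic mice, with a median difference between the genotypes of -0.24, against 48.5% and 0.02 over all genes. For the Adamts genes it was 13 of 15, with a median of -0.63. Both changes rest on 1 vehicle array per genotype, and the wild-type vehicle array is the one that stood apart, so its state and the genotype cannot be told apart here. Of the 16 genes, 15 were above 0 in the transgenic mice, and 15 had both chlorhexidine arrays above both vehicle arrays. The genes were picked for a higher signal on the wild-type chlorhexidine array, which fixes part of the second count. Neither count was set against other genes called higher in the wild type, so neither is particular to these families.

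Changes of enzymes were also set beside those of their inhibitors as differences between log2 changes, a ratio within the arrays that shows unequal change and no activity. Mmp14 and Timp1 changed alike in the wild type, with 0.06 between them, and Mmp14 changed less than Timp1 in the transgenic mice, at -0.57. Mmp2 changed less than Timp1 in both, at -1.12 and -0.89, and more than Timp2, at 1.60 and 1.21. Against Timp3, Adam17 stood at 0.35 and 0.90 and Adamts5 at 0.90 and 0.88. These values use 1 probe set a gene, and the probe sets of Timp2 and Timp3 spread over a wider range than several of them. With the Timp3 probe set of the largest wild-type change, 1.30, both wild-type differences against Timp3 would lie below 0.

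A fit with treatment and genotype as additive terms (limma, Benjamini-Hochberg adjustment over 12754 detected genes) left 1 residual degree of freedom and takes the interaction for error. It called 12 genes for treatment, 0.0941%, of which Mmp8 was 1 of the 40 fitted here, at a log2 coefficient of 3.71 (SE 0.233, limma adjusted p = 0.0404), although Mmp8 was Present on 1 array. Mmp3, with 2.31 (SE 0.238), missed the threshold at a limma adjusted p of 0.0506, as did Timp1 with 2.68 and Mmp12 with -2.72. At an unadjusted p under 0.05 there were 22 of the 40 genes, beside 23.0% of all genes. For genotype the limma fit called 0 genes, with 633 of all genes and 2 of the 40 at an unadjusted p under 0.05, and 55 of all genes with a prior that follows intensity. Its count for treatment ran from 0 to 22 over the alternatives, so it orders the genes more than it divides them.

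Proteins that activate or restrain these enzymes without belonging to the 4 families were taken from a list of 25, of which 24 were measured. In the wild type 5 were higher and 2 lower, against 5.77% and 3.46% of all genes. In the transgenic mice 2 were higher and none lower, against 2.67% and 0.978%. Pcsk5, a proprotein convertase, read 93.8 and 279 in the wild type and 108 and 251 in the transgenic mice, 2.98-fold and 2.32-fold higher. Lrp1, a receptor that clears several of these enzymes, read 579.8 and 1243 in the wild type and 568 and 1161 in the transgenic mice, 2.14-fold and 2.05-fold higher. Higher in the wild type alone were Plaur, the urokinase receptor, at 5.82-fold, Tfpi2, a serine protease inhibitor, at 3.79-fold, and Plat, tissue plasminogen activator, at 3.31-fold. Against the transgenic vehicle array, wild-type Plaur and Tfpi2 came to 2.16-fold and 2.40-fold, and Plaur was called 2.69-fold higher on the transgenic than on the wild-type vehicle array. The lower ones were Tspan33 and Spock2, a testican. Against the transgenic vehicle array, wild-type Tspan33 was 1.72-fold lower, short of the threshold. Reck, a membrane-anchored inhibitor of MMPs, read 219 and 234 in the wild type and 205 and 234 in the transgenic mice. Of 14 related astacin and ADAMTS-like genes, 2 were higher and 1 lower in the wild type, against 5.77% and 3.46% of all genes. In the transgenic mice 2 were higher, against 2.67%. Bmp1, the procollagen C-proteinase, was higher in both, 2.62-fold and 2.28-fold, joined by Adamtsl1 in the wild type at 2.41-fold. Pcolce, an enhancer of BMP1, was 1.90-fold higher in the wild type and 2.09-fold in the transgenic mice, values that lie on either side of the threshold.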

How the data were processed

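RNA of parietal peritoneum was hybridised to 4 one-colour 3′ expression arrays of 45101 probe sets. The authors deposited 1 linear signal intensity per probe set, beside a detection p-value and the call made from it (Present, Marginal or Absent), per the file headers. Their algorithm and scaling target were not given in the sources used here, and the original scanner output was not used here. Here, signals were scaled to equal 2% trimmed means, floored at 0.1 and taken to log2. Symbols came from the platform annotation, updated through RefSeq (GRCm38.p6). Of 45037 probe sets without controls, 34945 had 1 symbol, 932 several and 9160 none. Probe sets with several symbols were not named, 5 of them with a symbol of the 4 families. A fold against an array that was not Present is a lower bound, taken against the higher of that array's lowest Present signal and the signal itself. The genes and lists were chosen with earlier results of these data known. Named genes were those called in any comparison, the detected Timp genes, the 3 with the smallest range, and others that a role or list required. Alternatives were quantile, cyclic loess and median scaling, no scaling, a pseudocount of 32, no filter on dim signals, the mean of probe sets, no cross-hybridising probe sets, and the other genotype's vehicle array. The additive fit used limma 3.58.1 in R 4.3.3, tested on simulated data, and other steps used Python 3.11.15. An intensity from 1 array has a precision set by the number of arrays, which is 1 a group.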

Additional observations from a re-analysis of the deposited data

Results flagged for a closer look

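Of the named genes Present on all 4 arrays, 4 had a chlorhexidine difference that pointed up in one genotype and down in the other. Each rested on 1 array against 1, and the difference was not tested. Adamts1 differed in log2 signal by 1.64 in the wild type and by -0.15 in the transgenic mice. For Mmp9 the values were -0.49 and 0.25, for Timp3 0.21 and -0.26, and for Adam33 0.41 and -0.22. Against the wild-type vehicle array the transgenic values turned positive for Adamts1, Timp3 and Adam33, at 0.33, 0.24 and 0.19. A second Adam33 probe set Present on all arrays gave -0.00 and 0.21, not the signs of the first. On the probe sets used, Adamts1 alone of the 4 genes passed 2-fold, in the wild type. For Timp3, other probe sets reached 1.30 in the wild type, and 2 of its 4 probe sets lay above 0 in the transgenic mice, up to 0.06. Adam23, at -0.20 and 0.32, and Adamts10, at 0.85 and -0.02, were also Present on all arrays and changed sign.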

How the results depend on the processing

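No gene called among the 65 reversed its sign under the 9 alternatives, and Adamts3, Adamts5, Mmp11, Mmp19 and Mmp23 were the genes that lost a call with chlorhexidine. Quantile, cyclic loess and median scaling each gave 2 genes lower with chlorhexidine in the transgenic mice and 0 higher between genotypes under vehicle. Signals as deposited gave 2 and 6, and a pseudocount of 32 gave 0 under vehicle. Over all genes, 199, 189, 200 and 320 were lower in the transgenic mice under quantile, cyclic loess, median and no scaling, in that order. Under vehicle, 92, 98 and 89 of all genes were higher with the scalings and 39 with the pseudocount. Without the filter on dim signals, 26 genes were higher and 10 lower in the wild type, 18 and 5 in the transgenic mice, and 10 and 7 in each genotype comparison. The counts over all genes were then 2547 and 2354, 1995 and 1708, 1619 and 1541 under vehicle, and 1703 and 1464 under chlorhexidine. The mean of probe sets gave 4 lower in the wild type, 2 lower in the transgenic mice, 6 higher and 1 lower between genotypes under vehicle, and 4 and 3 under chlorhexidine. All genes then gave 625 lower in the wild type, 277 lower in the transgenic mice, and 242 higher and 226 lower between genotypes under chlorhexidine. Under vehicle, all genes gave 458 higher and 7 lower as deposited and 380 and 190 with the mean of probe sets, beside 122 and 64 in the main setting. Against the wild-type vehicle array, 11 genes were higher in the transgenic mice, beside 659 of all genes. The additive limma fit called 22 genes with a prior that follows intensity, 0 under quantile or cyclic loess scaling, 5 under median centring, 12 with signals as deposited and 0 with undetected genes included. In the same order, these settings called 2483, 0, 0, 160, 722 and 0 of all genes. The cause of these shifts was not tested. The median wild-type difference of all genes was -0.03, and -0.26 under median centring or 0.22 as deposited. No paired analysis was possible because each group is 1 array and the labels carry no replicate numbers, and for the same reason no array could be left out of a group.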
